A study of Mus musculus with 6 samples.

Results

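The complement and coagulation factors made by the liver were followed here as 44 genes, chosen by gene name from the 20673 genes of the deposited tables. They comprise 17 complement genes, 14 clotting genes, 3 genes of fibrinolysis and 10 inhibitors of complement or of clotting. RNA of whole liver was sequenced from 6 mice of the inbred strain C57BL/6J, 3 fed a regular diet (RD, a standard rodent chow) and 3 fed a high-cholesterol diet (HCD) for 3 days. HCD held cocoa butter, cholesterol and sodium cholate, a bile salt, so that the parts of its ingredients cannot be told apart, and the labels name no other treatment. The study's mice were around 12 weeks old and of both sexes, and the sources used here do not tie a sex to each liver. RD 1 to 3 and HCD 1 to 3 name the livers by diet and replicate number.

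The liver is the main source of the plasma proteins of both systems. Complement starts on antibody (C1), on microbial sugars (mannose-binding lectins and the MASP proteases) or by the alternative pathway, and all routes cleave C3, after which C5 to C9 build a pore in the target membrane. Clotting factors are mostly proteases that activate each other in turn until thrombin, from prothrombin, cuts fibrinogen into fibrin. Plasmin, from plasminogen, dissolves the fibrin, and plasma inhibitors hold each of these steps in check.

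Each library held 13771630 to 23129576 counts, and the hepatocyte genes Alb, Ttr, Apoa1, Cps1 and Hnf4a summed to 81868 CPM or more in every library, where CPM are counts scaled to a common library total with TMM factors. HCD 1 stood apart. It had 5032 counts of Xist, the RNA that silences an X chromosome in female cells, against 0 in the other 5 livers, and 0 counts over 4 Y-linked genes, against 1075 to 2666 in the others. HCD 1 was thus the only liver with a female pattern of these genes, and in it sex and diet cannot be told apart. It was also the lowest of the 3 HCD livers for 31 of the 44 genes, and the lowest of all 6 for 25. The same was not counted over all genes, so these counts cannot be called particular to the 44 genes. Results that rest on HCD 1 are given with and without it below.

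All 44 genes passed the filter on low counts, with mean levels from 3.38 FPKM (Cfb) to 3121 FPKM (Fgg), where FPKM are counts per kilobase of gene, divided by a total that came to 59.0% (HCD 3) to 72.6% (RD 2) of a library's counts. Differences are log2 fold changes of HCD over RD with their standard error (SE), and a gene passed the test at an adjusted p under 0.05 by the edgeR quasi-likelihood test. By this rule 1 of the 44 genes, Cfp, was higher with HCD and 1, F11, was lower, which is 4.55% of them, beside 3.27% of the 13105 genes tested (1.95% higher and 1.32% lower; with library sizes alone in place of TMM factors, 1.21% and 1.23%). At an unadjusted p of 0.05 or less, 1 gene was higher and 9 were lower, or 22.7% of the 44, beside 20.9% of all genes tested (11.1% higher and 9.81% lower). The values of the 3 HCD livers did not overlap those of the 3 RD livers for 17 genes, with HCD above RD for 3 and below for 14, where 27.6% of all genes tested did not overlap (14% above and 13.7% below). The median log2 fold change was -0.10 over the 44 genes and 0.0074 over all genes tested, and 28 of the 44 were below 0, as were 49.3% of all genes tested. By class, the median was -0.30 over the 17 complement genes, -0.079 over the 14 clotting genes, -0.36 over the 3 genes of fibrinolysis and 0.091 over the 10 inhibitors. The fibrinolysis median is the value of Serpinf2, the main inhibitor of plasmin. That class also holds Plg, plasminogen (-0.38), and Cpb2, which protects fibrin from plasmin (0.20). Without HCD 1 the class medians, in the same order, were -0.12, -0.072, -0.34 and 0.22. Over all 44 genes the median without HCD 1 was -0.055, beside -0.0070 over all genes tested, and without HCD 2 it was -0.17. With each of the 6 livers left out in turn the class medians ran from -0.31 to -0.12 for complement, -0.11 to -0.028 for clotting, -0.44 to -0.24 for fibrinolysis and -0.066 to 0.22 for the inhibitors. The lowest inhibitor median, that without HCD 2, turned the sign. Summed, the 44 genes took 5.63%, 5.84% and 5.75% of all counts in RD 1, 2 and 3 and 4.41%, 5.22% and 4.20% in HCD 1, 2 and 3. These ranges did not overlap, and the shares are of raw counts, without TMM factors. Fga, Fgb and Fgg made up much of them, with 1.90%, 2.05% and 1.85% in the RD livers and 1.07%, 1.32% and 1.12% in the HCD livers. The shares of the 17 complement genes overlapped, at 1.53%, 1.63% and 1.56% with RD and 1.20%, 1.56% and 1.03% with HCD. The 5 hepatocyte genes named above ran from -0.36 (Hnf4a) to 0.59 (Ttr), with 2 above 0 and 3 below, and 0 passed the test. Their median was -0.25 (-0.37 to -0.050 with 1 liver left out). In whole liver, fewer cells of a type and less RNA per cell cannot be told apart.

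**Figure D1:**
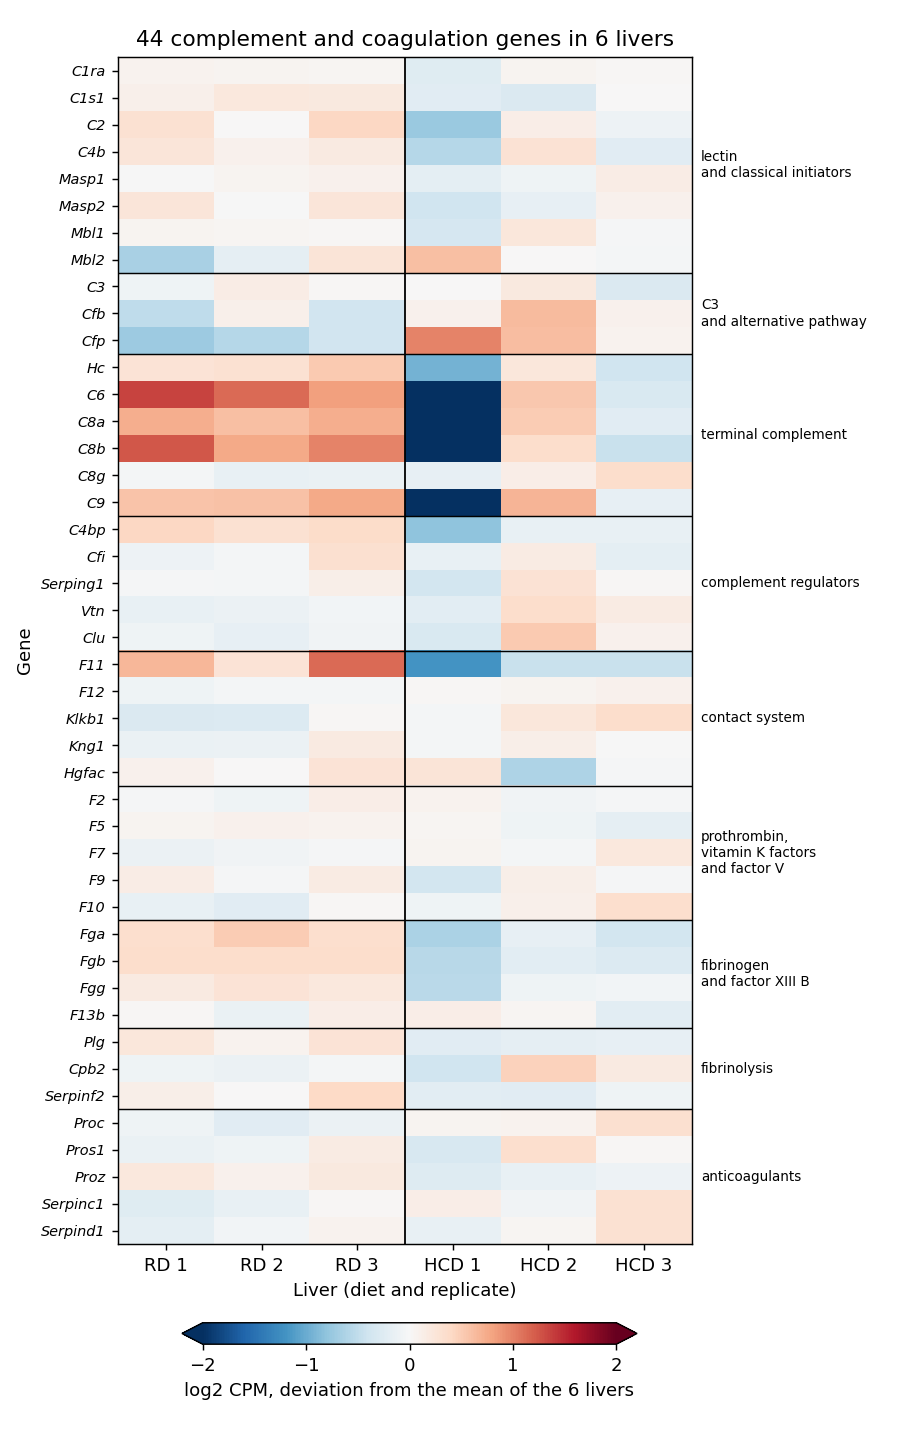
Heat map of the 44 genes (ordered by role, named at the right) in each of the 6 livers, as the deviation of log2 CPM from the mean of the 6 livers. The darkest cells are C6, C8a, C8b and C9 in HCD 1, which lie between -3.55 and -2.33 and so beyond the end of the colour scale at -2.

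**Figure D2:**
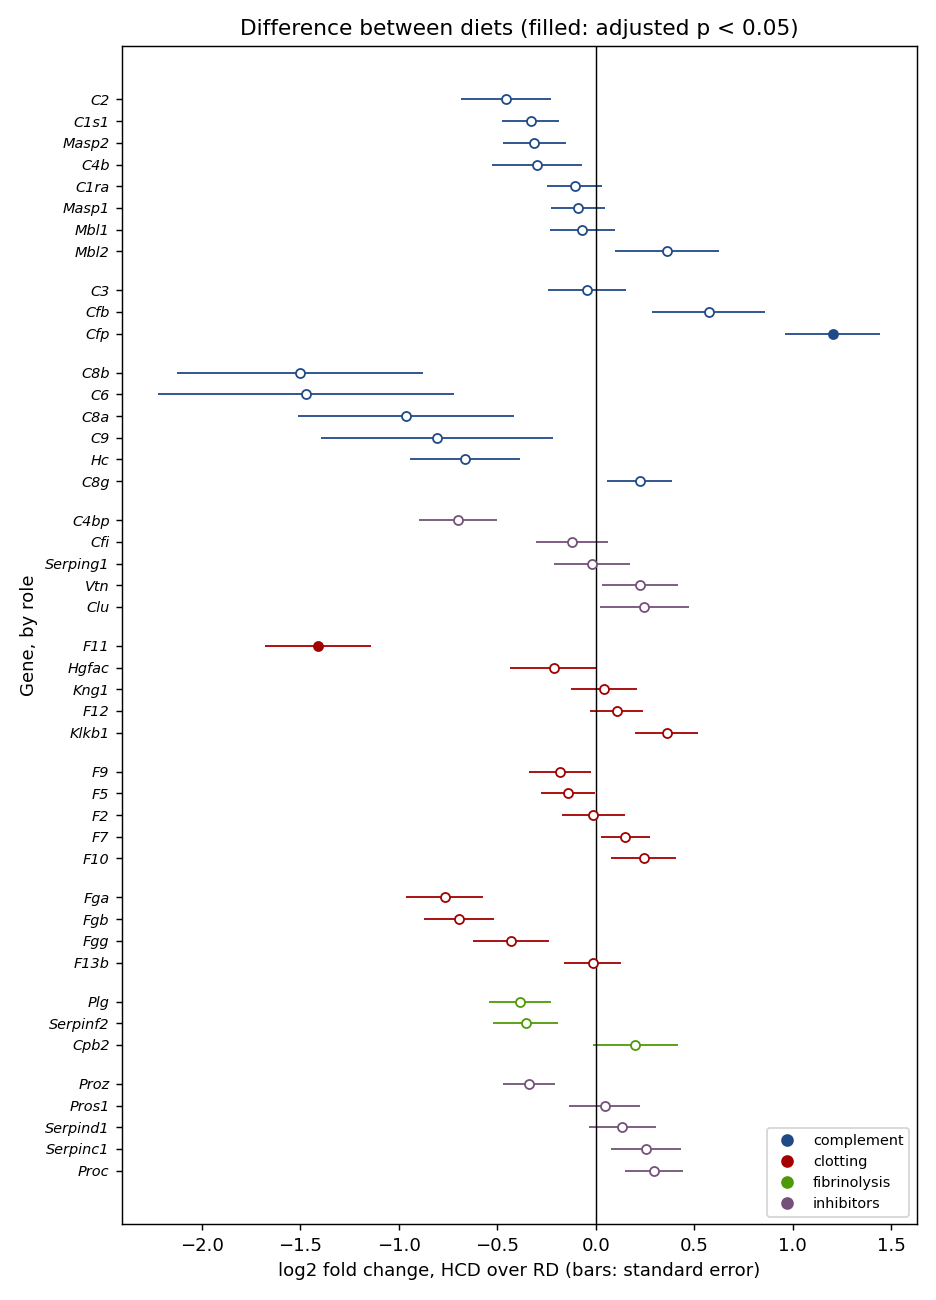
Log2 fold change of HCD over RD for the 44 genes, grouped by role, with bars for the standard error of the fit to 3 and 3 livers and colours for the 4 classes. The filled points, Cfp and F11, are the only ones with an adjusted p under 0.05, and 28 of the 44 points lie left of 0.

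The genes that start the classical and lectin pathways differed little between the diets. None of these 8 genes passed the test, 7 had a log2 fold change below 0, and their median was -0.20 with all livers and -0.068 without HCD 1. C1s1, the protease of the C1 complex that cleaves C4 and C2, was at 346, 375 and 371 CPM in RD 1, 2 and 3 and 278, 264 and 326 CPM in HCD 1, 2 and 3. All 3 HCD livers were below the RD livers, with a log2 fold change of -0.33 (SE 0.14) and adjusted p = 0.236 by the edgeR quasi-likelihood test. C2, which supplies the protease of the classical C3 convertase, was at 54.99, 44.4 and 59.2 CPM in RD 1, 2 and 3 and 26.2, 48.4 and 41.2 CPM in HCD 1, 2 and 3, and the low value of HCD 1 stood apart from HCD 2 and 3, of which HCD 2 lay among the RD livers. Its log2 fold change was -0.46 (SE 0.23), and -0.24 without HCD 1. The other 6 initiators, C1ra, C4b, Masp1, Masp2, Mbl1 and Mbl2, overlapped between the diets, with log2 fold changes from -0.31 (Masp2, a lectin-pathway protease) to 0.36 (Mbl2, a mannose-binding lectin). Without HCD 1, Masp2 was at -0.20 and Mbl2 at 0.12 (0.61 without RD 3). C4b went from -0.30 to -0.12 (-0.57 without HCD 2), and Mbl1 from -0.07 to 0.07 (-0.22 without HCD 2). Several of these genes can share reads with another: C1ra with C1rb, C1s1 with C1s2 and with an antisense transcript, C4b with C4a, C2 with a transcript that also spans Cfb, and Masp2 with Tardbp, so their counts are less certain.

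At the centre of the cascade C3 showed no detectable difference, whereas Cfp was higher with HCD. Cfp encodes properdin, which stabilizes the alternative-pathway C3 convertase and is made mainly by leukocytes. Cfp (ENSMUSG00000001128, chrX:20925454-20931555 of GRCm38, minus strand) was at 10.05, 11.2 and 12.8 CPM in RD 1, 2 and 3 and 34.3, 26.1 and 17.8 CPM in HCD 1, 2 and 3. All 3 HCD livers were above the RD livers, with HCD 1 highest and HCD 3 nearest to the RD range, and the means were 11.3 ± 1.39 CPM (SD, n = 3) with RD and 26.1 ± 8.22 CPM with HCD. The log2 fold change was 1.20 (SE 0.24), a 2.30-fold higher level with HCD, and adjusted p = 0.0381 by the edgeR quasi-likelihood test (exact two-sided permutation p = 0.1, the smallest that 3 against 3 livers allow). The call was lost without any 1 of RD 1, RD 2, RD 3, HCD 1 or HCD 2 (edgeR adjusted p between 0.0655 and 0.162) and held without HCD 3 (0.0329), and the difference without HCD 1 was 0.96. It was also lost with library sizes alone (edgeR adjusted p = 0.0755), with a correction for gene length (0.0698) and with replicate number as a block (0.0949). In limma on log2(FPKM + 1) or log2(FPKM + 0.1) it was lost too (limma adjusted p = 0.0571 and 0.0580).

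Genes of Kupffer cells, the macrophages of the liver, were also high in HCD 1 and HCD 2, the livers with the most Cfp. The summed level of 9 Kupffer cell markers (Clec4f, Vsig4, Cd5l, Timd4, Marco, Adgre1, C1qa, C1qb and C1qc) was 146, 184 and 249 CPM with RD and 455, 406 and 209 CPM with HCD, within the RD range in HCD 3. All 9 had a log2 fold change above 0 (median 0.87, and 0.63 without HCD 1), 5 of them with an unadjusted p no higher than 0.05, and 0 passed the edgeR test after adjustment, and none was at 0 counts in any library. The summed level of 6 leukocyte markers (Ptprc, Cd3e, Cd79a, S100a8, S100a9 and Itgam) was low in every library, 6.01, 8.09 and 10.6 CPM with RD and 13.04, 9.44 and 8.92 CPM with HCD, with HCD 2 and HCD 3 inside the RD range. All 6 stellate cell markers had a log2 fold change above 0 (median 0.51, and 0.34 without HCD 1; 0 passed the test, 1 with an unadjusted p no higher than 0.05). Their sum was 187, 191 and 197 CPM with RD and 337, 191 and 279 CPM with HCD, highest in HCD 1. Of 5 red cell markers 4 were above 0 and the globin genes Hba-a1 (2.41, edgeR adjusted p = 0.0217) and Hbb-bs (2.28, edgeR adjusted p = 0.0223) passed the test. Both calls were lost without any 1 of RD 1, RD 2 or HCD 3 (edgeR adjusted p between 0.0743 and 0.112). The red cell sum was 162, 138 and 239 CPM with RD and 177, 468 and 452 CPM with HCD. This sum lay within the RD range in HCD 1, but its parts did not. In HCD 1 Hba-a1 (77.1 CPM) and Hbb-bs (80.6 CPM) were above every RD liver (at most 36.7 and 38.6 CPM). Alas2, the marker below 0, was at 105, 105 and 154 CPM with RD and 8.24, 97.0 and 119 CPM with HCD. Its log2 fold change was -0.70, and -0.17 without HCD 1. The part of these cells in the Cfp result was not tested. Cfb, the protease of the alternative convertase, was at a low level, 4.23, 6.77 and 4.69 CPM in RD 1, 2 and 3 and 6.67, 9.93 and 6.65 CPM in HCD 1, 2 and 3, with HCD 1 and HCD 3 below the highest RD liver. Its log2 fold change of 0.57 (SE 0.29) did not pass the test (edgeR adjusted p = 0.299) and was 0.35 without HCD 2, and its reads cannot be told from those of a transcript joining C2 and Cfb. C3, the shared substrate of all pathways, was at 7011, 8267 and 7584 CPM in RD 1, 2 and 3 and 7502, 8556 and 6127 CPM in HCD 1, 2 and 3, and the diets overlapped with a log2 fold change of -0.04 (SE 0.20) (-0.17 to 0.067 with 1 liver left out).

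Terminal complement held the widest differences between livers among the 9 roles. The products of Hc (complement C5), C6, C8a, C8b and C9 assemble into the membrane pore. C6, C8a, C8b and C9 were far lower in HCD 1 than in any other liver and Hc was lowest there, while all 5 were intermediate in HCD 3 and nearest to the RD livers in HCD 2. C8b, the beta chain of C8, was at 629.8, 453 and 533 CPM in RD 1, 2 and 3 and 35.3, 339.7 and 195 CPM in HCD 1, 2 and 3. All 3 HCD livers were below the RD livers, and HCD 1 had less than HCD 2 and HCD 3 by a wide margin. Its log2 fold change was -1.50 (SE 0.63) with adjusted p = 0.216 by the edgeR quasi-likelihood test, and -1.01 (SE 0.26, adjusted p = 0.0850) without HCD 1. Without HCD 2 it was -2.23. Hc was at 1189, 1211 and 1416 CPM in RD 1, 2 and 3 and 511, 1154 and 744 CPM in HCD 1, 2 and 3, again with no overlap. Its log2 fold change was -0.66 (SE 0.28) with edgeR adjusted p = 0.220, against -0.42 without HCD 1 and -1.03 without HCD 2 (edgeR adjusted p = 0.0599).

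The other terminal genes were singled out after their values were seen. C6 was at 528, 452 and 368 CPM in the RD livers and 17.2, 301 and 168 CPM in the HCD livers, the widest range on the log2 scale of any of the 44 genes. C8a, the alpha chain of C8, was at 982, 900.4 and 986 CPM in the RD livers and 118, 844 and 507 CPM in the HCD livers. C9, which forms most of the pore, was at 779.9, 786 and 879 CPM in the RD livers and 96.5, 835 and 466 CPM in the HCD livers, so that HCD 2 lay within the RD range for C9 and just below it for C8a. The log2 fold changes were -1.47 for C6, -0.96 for C8a and -0.81 for C9 with all livers, and -0.94, -0.50 and -0.33 without HCD 1, and no call was made in either fit with edgeR (adjusted p between 0.303 and 0.470, and between 0.111 and 0.491). Without HCD 2 the 3 values were -2.29, -1.62 and -1.54. C8g, the gamma chain of C8 and a member of the lipocalin family, was at 399, 370.4 and 376 CPM in the RD livers and 365, 451 and 521 CPM in the HCD livers, overlapping between the diets. The median over the 6 terminal genes was -0.89 with all livers, -0.46 without HCD 1 and -1.58 without HCD 2.

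The contrast of C8g with the other chains of C8 also stood out per length. The ratio of C8b to C8g in FPKM was 0.926, 0.717 and 0.832 in the RD livers and 0.0567, 0.442 and 0.220 in the HCD livers. The ratio of C8a to C8g was 1.01, 0.998 and 1.08 in the RD livers and 0.133, 0.769 and 0.400 in the HCD livers. Both ratios were below the RD range in all 3 HCD livers and were lowest in HCD 1. C8b and C8a lie next to each other on chromosome 4 (chr4:104766317-104804548, plus strand, and chr4:104815679-104876398, minus strand, of GRCm38, 11130 bases apart), whereas C8g lies on chromosome 2. Lower hepatic terminal complement in female than in male mice is known as background, and HCD 1 was the only liver with Xist counts, so that for this liver sex and diet cannot be told apart.

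**Figure D3:**
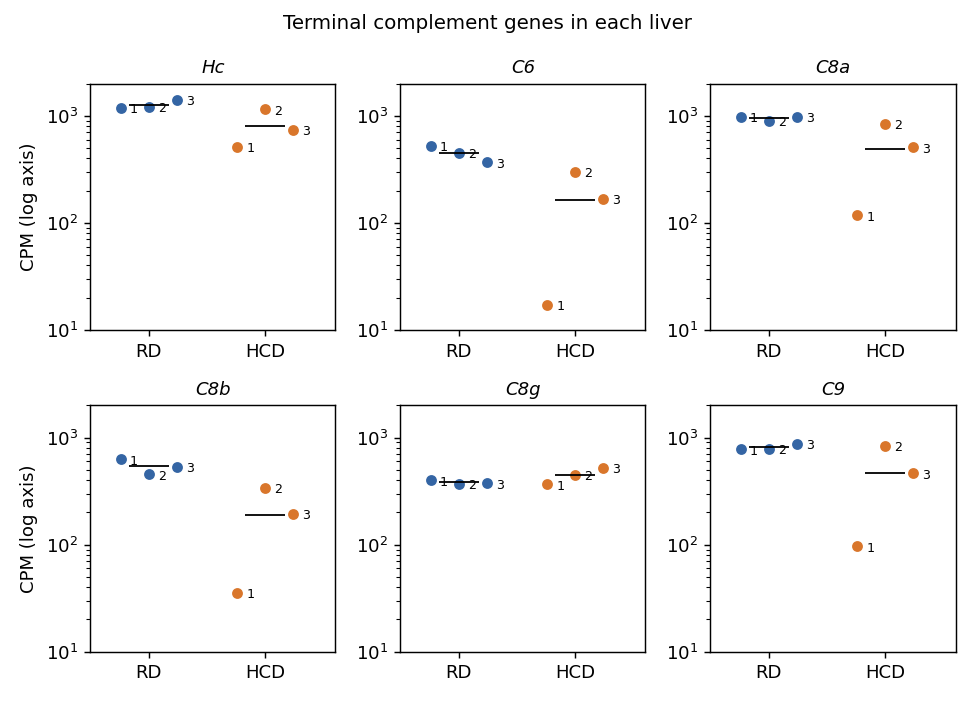
CPM on a log axis for the 6 terminal complement genes, 1 point for each liver (the number is the replicate), with a line at the mean of the 3 livers and no error bar. HCD 1 lies lowest in Hc, C6, C8a, C8b and C9, from 17.2 CPM for C6 to 511 CPM for Hc, and lies close to the RD livers for C8g.

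**Figure D4:**
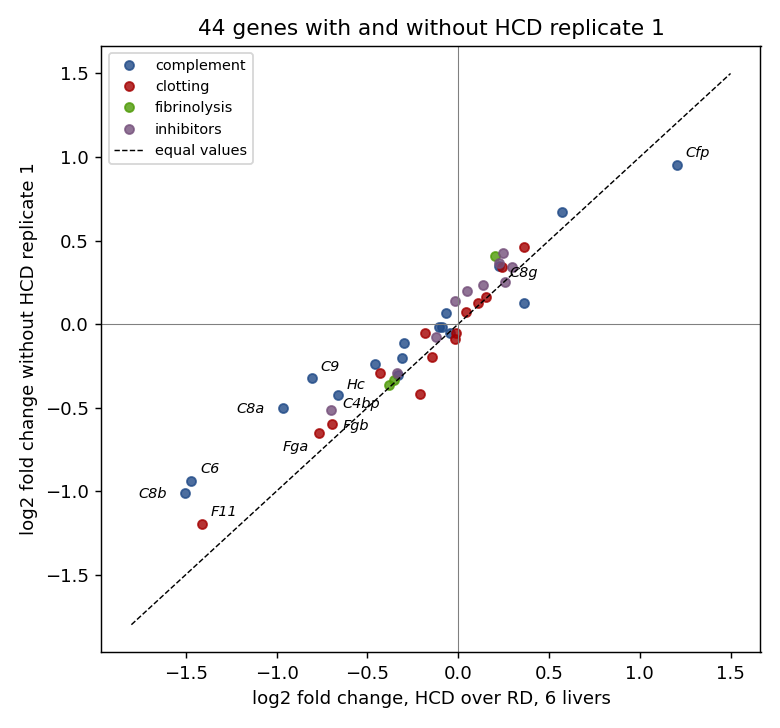
Log2 fold change of the 44 genes without HCD replicate 1 (vertical) against that with all 6 livers (horizontal), coloured by class, with the dashed line at equal values. C6, C8a, C8b and C9 lie farthest above the line, and C8b moves from -1.50 to -1.01.

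Among the complement regulators, C4bp stood lower in every HCD liver while the other 4 overlapped. C4bp encodes C4b-binding protein, which takes apart the classical C3 convertase. It was at 707, 654 and 685 CPM in RD 1, 2 and 3 and 303, 477 and 479.5 CPM in HCD 1, 2 and 3, with HCD 1 lowest and HCD 2 and 3 alike. The log2 fold change was -0.70 (SE 0.20) with adjusted p = 0.0995 by the edgeR quasi-likelihood test, above the threshold, and -0.51 without HCD 1. DESeq2, which called 4.81% of the 20673 genes it was given, put it past the threshold (adjusted p = 0.00544). Vtn (vitronectin, which blocks insertion of the pore) was the most abundant of the inhibitors at 2527 FPKM and was at 3129, 3166 and 3339.9 CPM in RD 1, 2 and 3 and 2988, 4410.1 and 3872 CPM in HCD 1, 2 and 3, with HCD 1 below and HCD 2 and 3 above the RD livers. Its log2 fold change was 0.23, against 0.37 without HCD 1 and 0.09 without HCD 2. The other 3, Cfi (factor I), Serping1 (C1 inhibitor) and Clu (clusterin), had log2 fold changes from -0.12 to 0.25. With 1 liver left out, Cfi ran from -0.25 to 0.018, Serping1 from -0.19 to 0.14 and Clu from 0.00072 to 0.43. None of the 5 passed the test.

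In the contact system, which starts the intrinsic route of clotting, F11 fell. The other 4 genes of this group did not pass the test, and Hgfac is placed among them only as a relative of factor XII. F11 encodes factor XI, the zymogen that activates factor IX. F11 (ENSMUSG00000031645, chr8:45241174-45262031 of GRCm38, minus strand) was at 77.00, 58.7 and 107 CPM in RD 1, 2 and 3 and 20.7, 35.3 and 35.3 CPM in HCD 1, 2 and 3. The RD livers spread widely, from 58.7 to 107 CPM, and all 3 HCD livers lay below them, with means of 80.8 ± 24.2 CPM (SD, n = 3) with RD and 30.5 ± 8.43 CPM with HCD. The log2 fold change was -1.41 (SE 0.27), a 2.66-fold higher level with RD, and adjusted p = 0.0334 by the edgeR quasi-likelihood test (exact two-sided permutation p = 0.1, the smallest possible). Without HCD 1 it was -1.20 and still passed (edgeR adjusted p = 0.0491, where 2.53% of the genes tested passed). The call was lost without any other single liver, RD 1, RD 2, RD 3, HCD 2 or HCD 3 (edgeR adjusted p between 0.0575 and 0.128, with log2 fold changes between -1.60 and -1.16). It was also lost in limma on log2(FPKM + 1) or log2(FPKM + 0.1) (limma adjusted p = 0.0540 and 0.0576) and with replicate number as a block in edgeR.

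Klkb1, the neighbour of F11 on chromosome 8, did not share its direction. Klkb1 encodes plasma prekallikrein, a close relative of factor XI, and lies 4657 bases from F11 on the same strand (chr8:45266689-45294859). It was at 175, 175 and 217 CPM in RD 1, 2 and 3 and 207, 250.4 and 271 CPM in HCD 1, 2 and 3, and 2 of the 3 HCD livers were above every RD liver. The log2 fold change was 0.36 (SE 0.16) and did not pass the test (edgeR adjusted p = 0.248). The FPKM ratio of F11 to Klkb1 was 1.03, 0.784 and 1.15 in the RD livers and 0.234, 0.330 and 0.306 in the HCD livers, with no overlap. A transcript annotated as Gm45753 shares sequence with Klkb1, so its counts are less certain. F12 (factor XII), Kng1 (kininogen) and Hgfac (HGF activator, a protease related to factor XII) had log2 fold changes of 0.11, 0.04 and -0.21, with Kng1 at -0.014 to 0.15 and Hgfac at -0.42 to -0.0097 when 1 liver was left out. The narrow F12 values, 585 ± 11.5 CPM (SD, n = 3) with RD and 629.6 ± 16.8 CPM with HCD, did not overlap, but their difference did not pass the test (edgeR adjusted p = 0.698).

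Prothrombin, the vitamin K-dependent factors VII, IX and X and the cofactor factor V had small log2 fold changes. None of these 5 genes passed the test or reached an unadjusted p of 0.05, and their log2 fold changes ran from -0.18 (F9) to 0.24 (F10). F9 was at -0.06 without HCD 1 and at -0.30 without HCD 2. F10, whose product converts prothrombin to thrombin, was at 431, 408 and 487 CPM in RD 1, 2 and 3 and 450.4, 514 and 606 CPM in HCD 1, 2 and 3, with 2 HCD livers above the RD range. F7, whose product starts the extrinsic route, was at 104, 108 and 111 CPM in RD 1, 2 and 3 and 118, 110.0 and 131 CPM in HCD 1, 2 and 3, with HCD 2 inside the RD range. Without HCD 3 the log2 fold changes were 0.12 for F10 and 0.07 for F7. F2, prothrombin itself, averaged 1959.8 ± 153 CPM (SD, n = 3) with RD and 1944 ± 97.4 CPM with HCD, with a log2 fold change of -0.01 (SE 0.16) (-0.061 to 0.05 with 1 liver left out). F5 averaged 463 ± 5.09 CPM (SD, n = 3) with RD and 419.6 ± 31.3 CPM with HCD, and its HCD livers were all below the RD livers, but the difference did not pass the test (edgeR adjusted p = 0.592) and a noncoding transcript, Gm16548, shares 262 of its bases.

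Fibrinogen RNA was lower in every HCD liver than in any RD liver, for all 3 chains, without passing the test. Fibrinogen is assembled from alpha, beta and gamma chains, encoded by Fga, Fgb and Fgg side by side on chromosome 3 (Fgg at chr3:83007724-83015049 and Fga at chr3:83026076-83033627 on the plus strand and Fgb at chr3:83040141-83049863 on the minus strand of GRCm38). Fgg and Fga were the most abundant of the 44 genes per length, at 3121 and 2862 FPKM, followed by Vtn. Fga was at 7079.7, 7978 and 7122 CPM in RD 1, 2 and 3 and 3624, 5047 and 4357 CPM in HCD 1, 2 and 3. Fgb was at 6390.4, 6389 and 6387 CPM in RD 1, 2 and 3 and 3409, 4314 and 4123 CPM in HCD 1, 2 and 3. Fgg was at 4954, 5301 and 5054 CPM in RD 1, 2 and 3 and 3009, 4130.4 and 4212 CPM in HCD 1, 2 and 3. In each chain HCD 1 was lowest and no HCD liver reached the RD range, and the 3 RD values of Fgb were nearly equal.

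The Fga log2 fold change was -0.77 (SE 0.19), a 1.70-fold higher level with RD, with adjusted p = 0.0715 by the edgeR quasi-likelihood test. The Fgb log2 fold change was -0.69 (SE 0.18) with edgeR adjusted p = 0.0750, and that of Fgg was -0.43 (SE 0.19) with edgeR adjusted p = 0.248. These were -0.65, -0.60 and -0.29 without HCD 1. At an adjusted p under 0.10, a level that 7.48% of all genes reached, Fga, Fgb and C4bp were lower beside F11. Fga and Fgb passed 0.05 with DESeq2 (adjusted p = 0.000182 and 0.000234), with no filter on low counts (edgeR adjusted p = 0.0267 and 0.0343, where 3.14% of all genes passed) and with library sizes alone (0.0449 and 0.0395, where 2.43% passed). The 3 chains together took 1.90%, 2.05% and 1.85% of all counts in RD 1, 2 and 3 and 1.07%, 1.32% and 1.12% in HCD 1, 2 and 3. The chains did not keep one ratio: Fga over Fgg in FPKM was 0.994, 1.05 and 0.980 in the RD livers and 0.838, 0.850 and 0.719 in the HCD livers, and Fgb over Fgg was 0.709, 0.662 and 0.694 in the RD livers and 0.622, 0.574 and 0.538 in the HCD livers, so that both ratios were lower in every HCD liver. F13b, the carrier chain of factor XIII that crosslinks fibrin, overlapped between the diets with a log2 fold change of -0.02 (SE 0.15) (-0.087 to 0.068 with 1 liver left out).

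**Figure D5:**
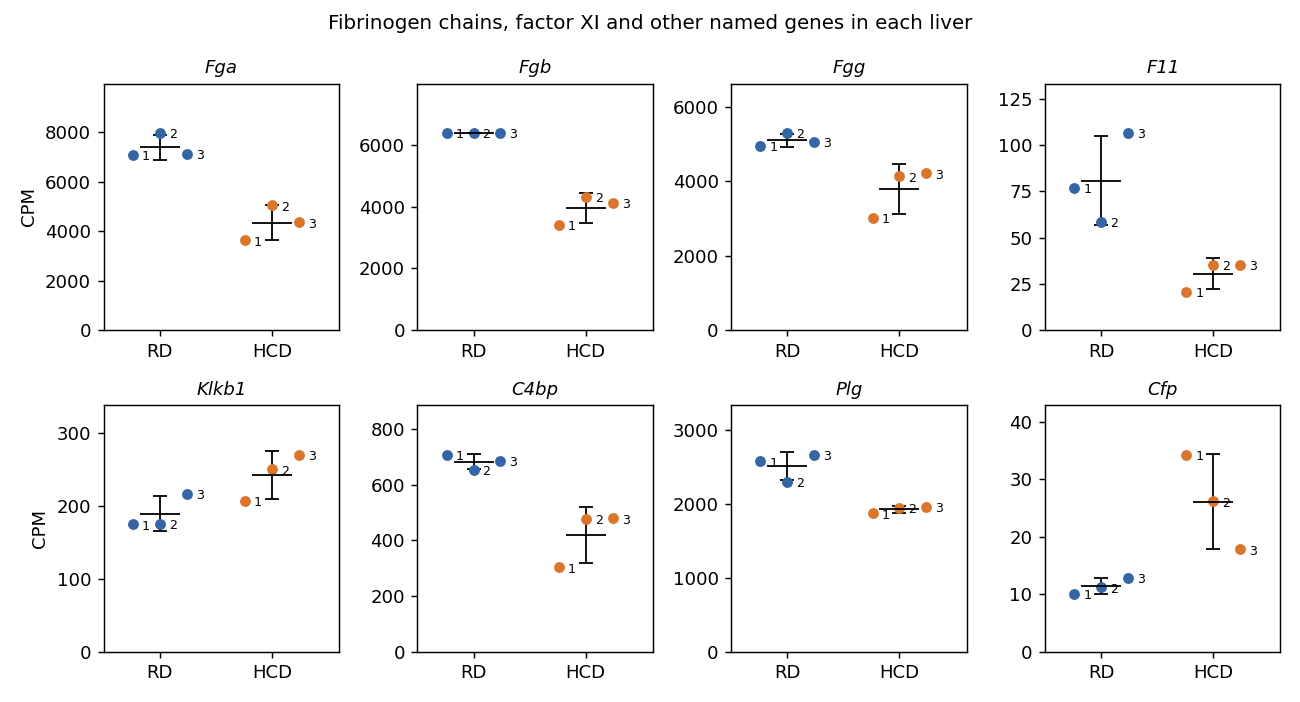
CPM of Fga, Fgb, Fgg, F11, Klkb1, C4bp, Plg and Cfp in each liver (points, numbered by replicate), with the mean and SD of 3 livers for each diet, on axes that start at 0. The HCD livers lie below the RD livers for the fibrinogen chains, F11, C4bp and Plg, above them for Cfp, and overlap them for Klkb1.

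The promoters of the fibrinogen chains and of both genes that passed the test are printed because the chains are neighbours that were lower together and because F11 and Cfp carry the calls. The sequences are the 250 bases before the RefSeq transcription start (build GRCm38.p6), 5′ to 3′ on the strand of the gene, with matches to 7 short motifs in capitals. For Fga, 173 bases are printed, since GENCODE M21 starts the gene 77 bases earlier than RefSeq. They lie at chr3:83025903-83026075, plus strand (Fga), chr3:83049864-83050113, minus strand (Fgb), chr3:83007474-83007723, plus strand (Fgg), chr8:45262032-45262281, minus strand (F11) and chrX:20931556-20931805, minus strand (Cfp).
Fga: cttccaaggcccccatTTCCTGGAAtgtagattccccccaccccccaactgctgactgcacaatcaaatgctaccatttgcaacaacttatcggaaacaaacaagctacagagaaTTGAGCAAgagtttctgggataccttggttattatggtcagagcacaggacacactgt
Fgb: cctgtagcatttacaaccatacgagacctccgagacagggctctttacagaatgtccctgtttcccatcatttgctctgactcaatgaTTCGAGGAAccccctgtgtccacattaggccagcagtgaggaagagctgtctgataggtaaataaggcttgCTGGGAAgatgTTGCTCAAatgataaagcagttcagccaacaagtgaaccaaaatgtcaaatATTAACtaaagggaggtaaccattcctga
Fgg: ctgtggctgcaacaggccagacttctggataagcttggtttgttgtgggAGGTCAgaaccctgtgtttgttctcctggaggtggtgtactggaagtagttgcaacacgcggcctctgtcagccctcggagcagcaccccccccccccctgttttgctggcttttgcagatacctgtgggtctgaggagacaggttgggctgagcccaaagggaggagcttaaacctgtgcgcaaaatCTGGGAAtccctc
F11: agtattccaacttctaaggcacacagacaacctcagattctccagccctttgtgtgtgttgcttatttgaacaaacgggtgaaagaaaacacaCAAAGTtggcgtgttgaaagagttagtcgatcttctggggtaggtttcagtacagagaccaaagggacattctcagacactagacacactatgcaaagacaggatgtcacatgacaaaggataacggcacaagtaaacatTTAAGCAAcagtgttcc
Cfp: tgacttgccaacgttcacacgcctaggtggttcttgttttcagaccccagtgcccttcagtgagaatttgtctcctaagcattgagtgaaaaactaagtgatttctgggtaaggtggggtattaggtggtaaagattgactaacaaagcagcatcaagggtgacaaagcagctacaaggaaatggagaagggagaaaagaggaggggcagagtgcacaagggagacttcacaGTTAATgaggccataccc

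The motifs were searched on both strands and none of the matches overlap. Counted back from the start, Fga held a STAT match (TTCNNNGAA) at -234 to -226 and a C/EBP match (TTGCNNAA) at -135 to -128, with an HNF1 half-site (GTTAAT) at -43 to -38 in the part not printed. Fgb held a STAT match at -162 to -154, an interleukin-6 response element (CTGGGAA) at -91 to -85, a C/EBP match at -80 to -73 and an HNF1 half-site at -29 to -24. Fgg held the interleukin-6 element at -13 to -7 and a nuclear receptor half-site (AGGTCA) at -201 to -196. F11 held an HNF4 half-site (CAAAGT) at -157 to -152 and a C/EBP match at -17 to -10, and Cfp held an HNF1 half-site at -18 to -13. None of the 5 held TATAAA. Such short motifs are common: of 32851 promoters of this length in the RefSeq table, 6.43% held GTTAAT, 9.56% TTGCNNAA, 7.02% TTCNNNGAA, 9.10% CTGGGAA, 12.6% CAAAGT, 14.0% AGGTCA and 12.4% TATAAA. The table held 36 promoters for 34 of the 44 genes, and 12 of these (33.3%) held GTTAAT, 8 TTGCNNAA, 7 TTCNNNGAA, 5 CTGGGAA, 6 CAAAGT, 11 (30.6%) AGGTCA and 3 TATAAA. A match describes the letters of the window and says nothing of binding.

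In fibrinolysis, Plg and Serpinf2 were lower in every HCD liver and Cpb2 overlapped, and none passed the test. Plg encodes plasminogen, the precursor of plasmin, and was at 2570.3, 2297 and 2661 CPM in RD 1, 2 and 3 and 1870.5, 1943 and 1959.7 CPM in HCD 1, 2 and 3. The HCD livers, HCD 1 included, were close to one another and all below the RD livers. Its log2 fold change was -0.38 (SE 0.16) with adjusted p = 0.212 by the edgeR quasi-likelihood test, and 422 bases of Plg are shared with a transcript of Slc22a3. Serpinf2, the main inhibitor of plasmin, was at 991, 926 and 1211 CPM in RD 1, 2 and 3 and 793, 782 and 869.9 CPM in HCD 1, 2 and 3, with a log2 fold change of -0.36 (SE 0.17) and edgeR adjusted p = 0.264. Cpb2, a carboxypeptidase that protects fibrin from plasmin, had a log2 fold change of 0.20 (0.41 without HCD 1 and -0.01 without HCD 2), with HCD 1 below and HCD 2 and 3 above the RD livers.

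The anticoagulants did not share one direction, and none of the 5 passed the test. Proz, which encodes protein Z, a cofactor for inhibition of factor X, was at 376, 345 and 371 CPM in RD 1, 2 and 3 and 271, 293 and 300.2 CPM in HCD 1, 2 and 3. All 3 HCD livers were below the RD livers, with a log2 fold change of -0.34 (SE 0.13) and edgeR adjusted p = 0.196. Proc, which encodes protein C, the protease that cleaves activated factors V and VIII, was at 525, 475 and 513 CPM in RD 1, 2 and 3 and 579, 584 and 694 CPM in HCD 1, 2 and 3. Here all 3 HCD livers were above the RD livers, with a log2 fold change of 0.30 (SE 0.15) and edgeR adjusted p = 0.299, and 0.20 without HCD 3. Serpinc1 (antithrombin), Serpind1 (heparin cofactor II) and Pros1 (protein S, the cofactor of protein C) overlapped, with log2 fold changes from 0.05 to 0.26, and Serpinc1 can share reads with Zbtb37. With 1 liver left out, Pros1 ran from -0.13 to 0.20, Serpind1 from -0.0034 to 0.23 and Serpinc1 from 0.15 to 0.34, so that the first 2 changed sign. Proz follows F7 and F10 in a row on chromosome 8, with gaps of 1498 and 4237 bases, and the log2 fold changes of F7 and F10 were 0.15 and 0.24.

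Of 53 other complement and coagulation genes, receptors, relatives of the members and genes of the vitamin K cycle, 51 were in the tables and 41 passed the filter. In edgeR's test 1 of the 41, Fcna, was higher and 1, Serpina10, was lower, and at an unadjusted p of 0.05 or less 6 were higher and 3 lower. Over all genes tested 3.27% passed the test (1.95% higher and 1.32% lower) and 20.9% had such an unadjusted p (11.1% higher and 9.81% lower). Their median log2 fold change was 0.11, and 0.058 to 0.20 with 1 liver left out. Serpina10, the inhibitor that uses protein Z as its cofactor, was at 287, 269 and 279 CPM in RD 1, 2 and 3 and 132, 149.8 and 152 CPM in HCD 1, 2 and 3, with no overlap, and fell by 0.95 on the log2 scale (SE 0.13, edgeR adjusted p = 0.0130), and by 0.88 without HCD 1 (edgeR adjusted p = 0.0213). The call was lost without RD 1 (0.0913) or RD 2 (0.0708). Protein Z and its partner serpin were thus both below the RD range in every HCD liver.

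Fcna, a ficolin of macrophages that starts the lectin pathway, was at 16.6, 19.1 and 20.4 CPM in RD 1, 2 and 3 and 40.1, 32.8 and 30.2 CPM in HCD 1, 2 and 3. All 3 HCD livers were above the RD livers, with a log2 fold change of 0.88 (SE 0.16) and edgeR adjusted p = 0.0299, and the call was lost without any single one of the 6 livers (0.0537 to 0.145). The macrophage genes C1qb and C1qc (chains of C1q) and Vsig4 (a complement receptor), which are also in the Kupffer cell list, had log2 fold changes of 0.80, 0.87 and 0.91 (edgeR adjusted p between 0.0995 and 0.165). These 3 genes enter the Kupffer cell sum themselves, and the part of these cells was not tested. Cd59a, which blocks the membrane pore on host cells, was at 0.35 and Vkorc1, the reductase that recycles vitamin K, at 0.58 (0.29 to 0.45 and 0.38 to 0.72 with 1 liver left out). Lman1, a cargo receptor that carries factors V and VIII out of the endoplasmic reticulum, was at -0.39 with edgeR adjusted p = 0.151, and its values did not overlap between the diets. C4a, a close copy of C4b (95.97% identical over 5379 aligned bases), was at 111, 166 and 38.9 CPM in RD 1, 2 and 3 and 3.34, 32.5 and 19.9 CPM in HCD 1, 2 and 3, a log2 fold change of -2.51 (SE 0.75) that did not pass the test (edgeR adjusted p = 0.109) and whose reads cannot be fully told from those of C4b.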

How the data were processed

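Total RNA of 6 livers (3 RD, 3 HCD) was sequenced by Novogene. The authors deposited raw counts per gene, and FPKM per kilobase of gene and per a total that no source names and that the values put at 59.0% to 72.6% of a library's counts. The authors' own comparison of the diets, deposited as log2 fold changes with p-values, was not used. The submitters' processing notes name STAR, HTSeq, DESeq2, edgeR and GRCm39 without roles; no source used here gives the strand setting. Genes were joined by Ensembl identifier to GENCODE M21 (GRCm38), whose exon lengths the FPKM imply within 0.1% for 94.6% to 94.8% of genes with enough counts.

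Counts were tested in R 4.3.3 with edgeR 4.0.16 (filterByExpr by diet, TMM factors 0.886 to 1.07, glmQLFit and glmQLFTest without covariates) over 13105 of 20673 genes, with Benjamini-Hochberg adjustment. Nothing shows whether the animals shared a cage or litter, so p-values measure the spread between these livers (biological coefficient of variation 27.8%). Exact permutation tests used log2(CPM + 0.5). Depth limits no member, since 3 counts equal 0.243 CPM or less. Alternatives used DESeq2 1.42.0, limma 3.58.1 and other scalings, filters and left-out livers. The code was tested on simulated data that varied less between livers than these data, so that run does not give its error rates here. Shared reads were sought with minimap2 2.31 (200 bases, 95% identity, 90% for pseudogenes). Named genes are those called, the 2 of lowest p in each role, the 3 most abundant, and other pathway genes at p of 0.05 or less. Members and lists were chosen with earlier results of these data known. Figures were drawn with Python 3.11.15 and matplotlib 3.10.9.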

Additional observations from a re-analysis of the deposited data

How the results depend on the processing

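The median of the 44 members lay between -0.17 and -0.055 under the alternatives. Its shifts from the main value of -0.098 were smaller than 0.13, the SD between livers of a diet of their median deviation over the members. The lowest value, with library sizes alone, stood beside a median of -0.056 over all genes. The number of members called, 1 higher (Cfp) and 1 lower (F11), depended on the setting. DESeq2 called 4 lower (F11, Fga, Fgb and C4bp, with 4.81% of all genes called), no filter on low counts 3 lower (F11, Fga and Fgb; 3.14%), and library sizes alone 3 lower and 0 higher (2.43%). The length-trend correction called 0 higher (1.92%), and limma-trend on log2(FPKM + 1) or log2(FPKM + 0.1) called 0 higher and 0 lower (2.85% and 2.62%). An unadjusted p of 0.05 or less gave 9 lower and an adjusted p under 0.10 gave 4. Leaving out each liver gave 0 to 1 higher and 0 to 1 lower. Other pathway genes called were 3 higher with DESeq2, 2 lower with no filter, and 0 higher with library sizes alone or the length-trend correction, and leaving out each liver gave 0 higher and 0 to 1 lower. The cause of these shifts was not tested.

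Over all genes, 255 were called higher and 173 lower. DESeq2 called 554 and 441, library sizes alone 158 higher (and 161 lower), the length-trend correction 138 and 113, no filter 364 and 285, and limma-trend on log2(FPKM + 0.1) 229 and 115. Leaving out each liver gave 15 to 200 higher and 21 to 141 lower, fewest without RD 1.

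Replicate numbers did not pair the livers: the correlations of same-numbered deviations were -0.076, 0.088 and -0.041. With the replicate block, 71 genes were called higher and 65 lower, and 0 members and 0 higher other pathway genes. The 19 members and 9 other pathway genes described in full did not change direction under any alternative run. Of their values 409 kept their side of the threshold, 29 lost it and 10 gained it. Of the other 25 members, which did not pass the test, 12 changed sign under at least 1 alternative, 10 of them when 1 liver was left out.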
